A study of Mus musculus with 4 samples.

Results

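Ependymal nuclei were examined in single-nucleus RNA-seq of mouse brain collected after permanent middle cerebral artery occlusion (MCAO), a stroke model with a small infarct of the parietal cortex. A barcode was taken as an ependymal nucleus when it held more than 1000 unique molecular identifiers (UMIs, counted RNA molecules) and when 10 genes of the motile cilium, Dnah12, Cfap54, Spag17, Dnah6, Hydin, Tmem212, Ccdc153, Dnah11, Dnah9 and Cfap44, together had at least 6 UMIs and at least 0.3% of its UMIs. The members were thus chosen by their own expression, and the values of these 10 genes describe the choice and are not a result. The rule gave 51 ependymal nuclei among 8909 barcodes above 1000 UMIs, which were 17 of 2226 (sham control), 6 of 1203 (day 1), 21 of 3734 (day 3) and 7 of 1746 (day 7).

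The 4 groups were C57Black/6 male mice of 3 months, of which the sham control carried no occlusion and the others were taken 1, 3 and 7 days after it. Each group was 1 library made from 3 pooled hemispheres, so animals could not be separated, no difference between groups has a replicate check, and no test was made. All intervals are exact 95% intervals that cover counting error only, and all 3 comparisons share the same sham control nuclei. The protocol in the labels speaks of intact cortex as the control tissue while the series design speaks of forebrain hemispheres at every time point, and the study's own breakdown of nuclei fits the deposited day 3 and day 7 libraries only when these labels are exchanged. The libraries held 23285489 to 42963698 UMIs in all, and the median barcode above 1000 UMIs held 4644.5 to 8728. Groups follow the deposited labels, so the order of day 3 and day 7 is uncertain throughout.

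Of the 51 members, 9 were mixed, meaning that the marker list of another cell type held at least 50% as many UMIs as the 10 genes of the rule, and these were 4 (sham control), 2 (day 1), 1 (day 3) and 2 (day 7). In sham control the other list was that of astrocytes (144 UMIs), neurons (149), choroid plexus (109) or endothelial cells (16), each in a different nucleus. At day 1 a nucleus of 18443 UMIs held 73 astrocyte UMIs and 62 UMIs of oligodendrocyte precursors, and another held 34 UMIs of tanycyte markers. The mixed nucleus of day 3 held 172 choroid plexus UMIs, and those of day 7 held 55 oligodendrocyte and 8 neuron UMIs. Main results are therefore given with and without the mixed members, a split chosen after seeing the data, and a value given once is for all members. The split compares other lists with the genes of the rule, so it drops members with few UMIs of these genes, all 7 members nearest the threshold among them, and levels of cilium genes without the mixed members follow in part from that choice. The day 7 nucleus with the most UMIs, 39676, carried 51.8% of all UMIs of its library's members, so single nuclei weigh heavily at day 7. No member shared its barcode with a barcode above 1000 UMIs of another library, although 11 such pairs occurred among all barcodes.

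Ependymal cells form the epithelium that lines the brain ventricles. They arise from radial glia and carry tufts of motile cilia whose beating moves cerebrospinal fluid along the ventricular wall. The axoneme, the core of such a cilium, is a ring of doublet microtubules around a central pair, and dynein arms slide the doublets while radial spokes and nexin links keep the bending in register. Transcription factors of the RFX family and Foxj1 drive the genes of the motile axoneme, and RFX factors bind the X-box, a DNA element made of inverted repeats of a short motif. Foxj1 belongs to the forkhead family, whose members bind sites with the core TAAACA.

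Promoters of the cilium genes were read first, since the members express these genes together. Motile-cilium genes are the 10 genes of the rule with 87 others on fixed lists of axonemal parts, and 82 of these 97 had a promoter in the RefSeq table for GRCm38.p6. The 250 bases before each gene's start were searched on both strands for GTTGCCA and GTTGCTA, each a form of the repeat in the X-box motif, and for TAAACA and TGTTTAC, forkhead motifs. The motifs were chosen after looking at the promoters, and every TGTTTAC match is also a TAAACA match because the reverse complement of the longer motif contains the shorter. GTTGCCA or GTTGCTA occurred in 37.8% of the 82 promoters (31 genes), against 7.45% of the 27025 promoters in the table and 9.96% of the 3232 promoters of genes with at least 20 UMIs over the members. TAAACA occurred in 17.1% of the motile-cilium promoters and in 13.5% of all promoters, and TGTTTAC in 6.1% and 3.54%. Among the 26 promoters of the reactive glia list none held either X-box motif, and 1 of 12 did on the list of junction and transport genes. In the 28 genes outside the rule that held a match, 26 of 30 matches lay within 100 bases of the start. The same share was not counted for other promoters, so this number has no background. The near-identical copies Dnah7a, Dnah7b and Dnah7c were each counted. A match describes letters in this window and is not a binding site.

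The following 6 windows are shown because they hold the X-box motifs close to the gene's start, the first 3 from genes of the rule and the others from motile-cilium genes outside it. Each runs 5′ to 3′ on the gene's strand and ends at the base before the start, and capitals mark either X-box motif or its reverse complement. The windows are Hydin at chr8:110266727-110266976 (plus strand), Dnah6 at chr6:73221632-73221881 (minus strand), Cfap44 at chr16:44394549-44394798 (plus strand), Cfap69 at chr5:5664233-5664482 (minus strand), Kif9 at chr9:110476744-110476993 (plus strand) and Enkur at chr2:21205366-21205615 (minus strand). In Hydin, which encodes a large protein of the central pair, the matches lay 87 and 14 bases before the start. In Cfap44 they lay 130, 27 and 20 bases before it, and the last of these touch each other.
Hydin: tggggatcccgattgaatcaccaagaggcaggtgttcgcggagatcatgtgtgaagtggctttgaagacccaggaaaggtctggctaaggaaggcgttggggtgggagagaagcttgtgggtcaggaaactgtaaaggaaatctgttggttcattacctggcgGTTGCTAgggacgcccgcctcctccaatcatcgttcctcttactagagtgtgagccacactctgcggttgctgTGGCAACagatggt
Dnah6: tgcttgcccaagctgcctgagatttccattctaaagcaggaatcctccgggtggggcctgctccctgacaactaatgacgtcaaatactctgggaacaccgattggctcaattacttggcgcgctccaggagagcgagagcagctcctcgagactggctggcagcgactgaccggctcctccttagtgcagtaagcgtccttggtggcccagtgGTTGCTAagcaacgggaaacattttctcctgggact
Cfap44: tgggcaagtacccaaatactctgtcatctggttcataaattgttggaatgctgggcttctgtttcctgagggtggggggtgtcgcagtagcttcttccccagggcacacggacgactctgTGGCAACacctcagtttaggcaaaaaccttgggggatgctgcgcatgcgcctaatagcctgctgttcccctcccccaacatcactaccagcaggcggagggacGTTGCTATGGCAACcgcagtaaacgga
Cfap69: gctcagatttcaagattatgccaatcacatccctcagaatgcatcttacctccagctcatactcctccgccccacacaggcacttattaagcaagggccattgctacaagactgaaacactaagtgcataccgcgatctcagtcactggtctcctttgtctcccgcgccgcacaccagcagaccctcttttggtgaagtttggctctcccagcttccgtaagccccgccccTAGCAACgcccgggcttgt
Kif9: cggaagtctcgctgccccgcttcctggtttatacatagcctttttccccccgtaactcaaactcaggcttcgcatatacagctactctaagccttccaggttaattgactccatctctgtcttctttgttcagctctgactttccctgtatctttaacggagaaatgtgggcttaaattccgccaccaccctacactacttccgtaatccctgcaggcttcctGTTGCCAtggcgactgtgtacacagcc
Enkur: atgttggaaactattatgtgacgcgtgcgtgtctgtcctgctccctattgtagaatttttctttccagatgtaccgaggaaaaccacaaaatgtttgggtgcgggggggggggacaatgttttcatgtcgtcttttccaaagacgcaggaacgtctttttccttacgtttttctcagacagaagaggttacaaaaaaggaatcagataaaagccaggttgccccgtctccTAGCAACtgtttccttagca

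The 51 members had a median of 4528 (1623 to 39676) UMIs and 2250 (1124 to 7480) genes detected. By library the medians were 4528, 13627, 3207 and 6534 UMIs from sham control to day 7, so the day 1 nuclei were the deepest and those of day 3 the shallowest. The share of UMIs in the 10 genes of the rule had a median of 1.10% and ran from 0.313% to 1.95%, and its medians by library were 1.10%, 0.908%, 1.11% and 1.15%. At least 8 of the 10 genes were detected in 44 members. Near the threshold of 0.3%, 7 members lay between 0.313% and 0.379%, and 4 barcodes lay just outside at 0.225% to 0.289%. Of those outside, a sham control barcode of 56778 UMIs held 3702 choroid plexus UMIs, and another of 5205 UMIs held 241. A further sham control barcode of 1069 UMIs had 0.468% of its UMIs in the 10 genes and missed the rule with 5 UMIs.

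**Figure D1:**
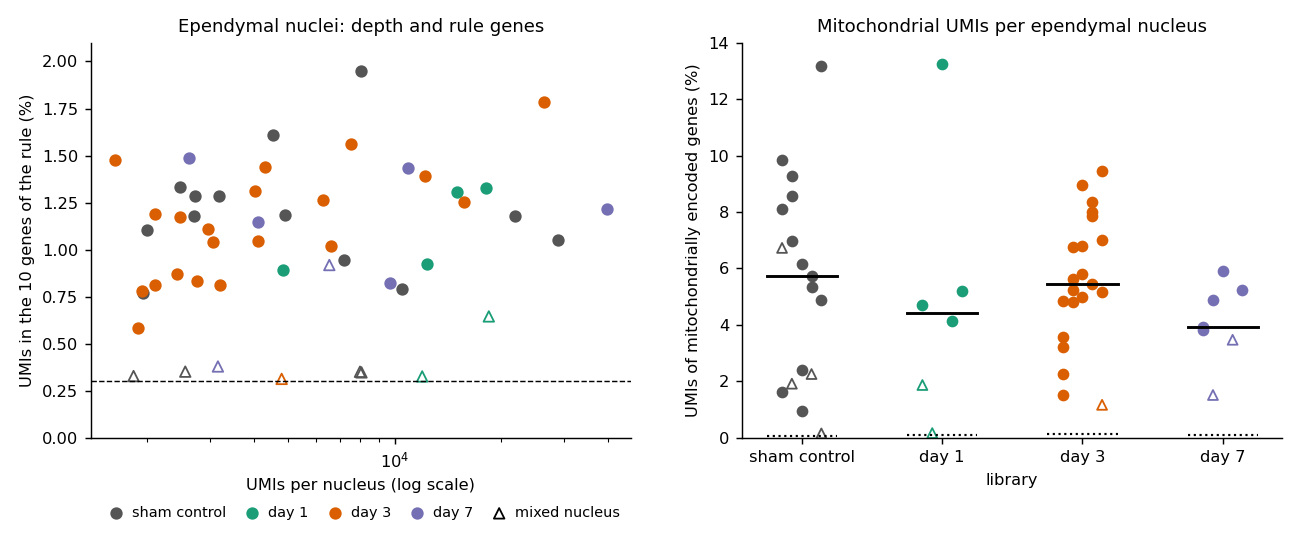
Left, UMIs per nucleus (log axis) against the percent of UMIs in the 10 genes of the rule for the 51 ependymal nuclei, coloured by library, with triangles for the 9 mixed members and a dashed line at the 0.3% threshold. Right, the percent of UMIs from mitochondrial genes in each member by library, with solid lines at the members' medians and dotted lines at the medians of the other barcodes above 1000 UMIs. The members' medians lie between 3.92% and 5.73%, and those of the other barcodes between 0.0655% and 0.123%.

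The label was checked with genes outside the rule. Foxj1, the defining regulator of multiciliated cells, had a UMI in 31 of 51 members, which were 8 of 17 (sham control), 5 of 6 (day 1), 13 of 21 (day 3) and 5 of 7 (day 7). Astrocyte-like nuclei, the 439 barcodes with at least 6 UMIs and at least 1% of their UMIs on the astrocyte list, served for comparison in the same libraries and had a median of 3291 UMIs. A Foxj1 UMI was found in 60.8% of ependymal against 1.14% of astrocyte-like nuclei, and in 21.6% and 0.456% after thinning each nucleus to 1000 UMIs. Spag16, a protein of the central apparatus, was found in 98.0% of ependymal against 6.83% of astrocyte-like nuclei, and in 78.4% and 2.96% after thinning. Ak7, a ciliary adenylate kinase, was found in 88.2% of ependymal against 1.59% of astrocyte-like nuclei. Rfx3, an RFX factor, was more widely shared and was found in 94.1% of ependymal against 66.3% of astrocyte-like nuclei. Slc1a3, a glial glutamate transporter, went the other way and was found in 64.7% of ependymal against 93.4% of astrocyte-like nuclei. Aqp4, a water channel of glial membranes, was found in 54.9% of ependymal against 46.2% of astrocyte-like nuclei, and in 15.7% and 20.3% after thinning, so its share was near that of astrocyte-like nuclei. Of the 8 tanycyte markers, Rax, Gpr50 and Fndc3c1 were at 0 in all 51 members, while the others summed to 24, 48, 20 and 22 UMIs from sham control to day 7, or 13, 10, 11 and 16 UMIs without the mixed members. Mia, on the list of other ependymal genes, was also at 0.

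Outside the rule, the genes with the highest level in the members relative to all other barcodes above 1000 UMIs were Gm12695, Zfp474, Dthd1, Gm19301, 4930519F16Rik, Ttc29, BC051019, Unc5cl, Gm10714 and Fam216b, at 719 to 1404 times the CPM (UMIs scaled to a common total of the summed nuclei) of those barcodes. Gm12695 had 189, 186, 228 and 222 CPM from sham control to day 7 and was found in 27 of 51 members. Dthd1 had 494, 447, 515 and 535 CPM and was found in 34 members, and Ttc29, a protein of the sperm flagellum, had 395, 409.6, 549 and 509 CPM and was found in 37. Gm10714, a transcript named only by its model number, had 659, 571, 896 and 1030 CPM, the most of the 10 in every library but day 1, where Unc5cl had 719.9 CPM. Gm19301 and Fam216b overlap on opposite strands, and since the strand used in counting was not given their reads cannot be told apart. The 100 leading genes included 19 on the motile-cilium lists. A level at least 10 times that of the other barcodes was found for 53 of 66 motile-cilium genes outside the rule with at least 20 UMIs over the members, and for 449 of all 4075 genes with as many UMIs. These values describe a class chosen by genes of the same structure and are not a test of it. The genes of the rule span a median of 231 kb, against 68.1 kb for all genes with at least 20 UMIs and 36.3 kb for the motile-cilium genes outside the rule, and intronic reads were counted.

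The share of ependymal nuclei among the barcodes above 1000 UMIs was 0.764% (0.446% to 1.22%) for sham control, 0.499% (0.183% to 1.08%) for day 1, 0.562% (0.348% to 0.858%) for day 3 and 0.401% (0.161% to 0.824%) for day 7. The share was highest in sham control and lowest at day 7, and all 4 intervals overlapped. The order below sham control depended on the minimum depth, since among barcodes above 500 UMIs the shares were 0.681%, 0.112%, 0.266% and 0.276%, with day 1 the lowest. The members were the same 17, 6, 21 and 7 nuclei, and only the barcodes they were divided by changed. These went from 2226, 1203, 3734 and 1746 to 2495, 5340, 7883 and 2537. Without the mixed members the shares were 0.584% (0.311% to 0.997%), 0.333% (0.0907% to 0.849%), 0.536% (0.328% to 0.826%) and 0.286% (0.0930% to 0.667%). Choroid plexus-like nuclei, defined like the astrocyte-like nuclei with the choroid plexus list, mark the epithelium inside the ventricles and numbered 7, 3, 12 and 7. The sham control library thus held nuclei of ventricular tissue. Fewer nuclei recovered and fewer ependymal cells in the tissue cannot be told apart from these shares.

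The main question was whether the cilium program of these cells differed between sham control and the days after MCAO. Summed over the members, the 87 motile-cilium genes outside the rule had 20044 CPM (sham control), 19425 (day 1), 26133 (day 3) and 22812 (day 7). The ratio to sham control was 0.969 (0.909 to 1.03) at day 1, 1.30 (1.24 to 1.38) at day 3 and 1.14 (1.07 to 1.21) at day 7. With the mixed members left out the levels were 22086, 24179, 26460 and 23906 CPM and the ratios 1.09 (1.02 to 1.18), 1.20 (1.13 to 1.27) and 1.08 (1.01 to 1.16). The level was thus close to that of sham control at day 1, with a direction that depended on the mixed members, and was highest at day 3 in both counts. When each member was thinned to 1000 UMIs, the day 7 direction turned, to a log2 ratio of -0.28. In free RNA, the UMIs of barcodes of at most 1000 UMIs, the list had 1151 to 1374 CPM. Astrocyte-like nuclei had 1286, 1094, 1125 and 1005 CPM from sham control to day 7, and choroid plexus-like nuclei had 7759, 7492, 4303 and 5266 CPM. The choroid plexus-like values came from 7, 3, 12 and 7 nuclei. Those of sham control included a barcode of 56778 UMIs that held 128 UMIs of the rule's genes. Since members were chosen by other genes of the same structure, these levels are not independent of the rule.

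Gene by gene, few motile-cilium genes passed 2-fold. A gene entered a comparison with at least 20 UMIs over both sums, and for these calls sums under 3 UMIs were set to 3. At day 1, 0 of the 51 motile-cilium genes that entered were at least 2-fold higher and 0 at least 2-fold lower, where 7.98% and 6.39% of all 2080 genes were. At day 3, 6 of 57 were higher and 0 lower, against 6.27% and 6.15% of all 2456 genes. The median log2 ratio of the motile-cilium genes at day 3 was 0.32, beside 0.09 over all genes that entered. At day 7, 1 of 51 was higher and 1 lower, against 8.78% and 7.87% of all 1994 genes, and the median was 0.16 beside 0.12. At day 1 the median was -0.10 beside 0.01. The numbers past 2-fold were small on every day and are not read as a result. With the mixed members left out, 3 of 50 were higher at day 1, 5 of 56 at day 3 and 1 of 49 at day 7, and 0, 0 and 2 were lower, where 6.55%, 6.36% and 9.43% of all genes were higher and 8.19%, 4.24% and 6.08% lower.

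The 10 genes of the rule, given only as a description, had 10294 CPM (sham control), 9309 (day 1), 12918 (day 3) and 11439 (day 7), with 157 to 199.6 CPM in free RNA. None of these 10 passed 2-fold on any day, where 14.4%, 12.4% and 16.6% of all genes did from day 1 to day 7. Dnah12, the heavy chain of an inner dynein arm, had 1902, 1837, 2450 and 1983 CPM. Cfap54, a protein of the central apparatus, had 1425, 1365, 1664 and 1722 CPM. Tmem212, a membrane protein of ciliated cells, had 832, 807, 1369 and 1356 CPM. The other 7 were Spag17 (708, 757, 862 and 1043 CPM), Hydin (1112, 906, 1250 and 1043 CPM) and Cfap44 (964, 757, 1326 and 1056 CPM), all axonemal, the dynein heavy chains Dnah6 (980, 819, 1335 and 1109 CPM), Dnah9 (972, 894, 980.1 and 783 CPM) and Dnah11 (996, 807, 1267 and 978 CPM), and Ccdc153 (404, 360, 414 and 365 CPM).

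Genes of the dynein arms, the motors of the axoneme, had 5139 CPM (sham control), 4742 (day 1), 6937 (day 3) and 5843 (day 7), ratios of 0.923, 1.35 (1.22 to 1.50) and 1.14, or 1.08, 1.25 (1.12 to 1.40) and 1.11 without the mixed members. Armc4, which docks the outer dynein arms, had 40 UMIs (sham control), 41 (day 1), 79 (day 3) and 55 (day 7), which were 329, 509, 668 and 717 CPM. Its ratio was 1.54 at day 1, 2.03 (1.37 to 3.04) at day 3 and 2.18 (1.42 to 3.36) at day 7, and astrocyte-like nuclei held no UMI of it in any library. Armc4 was lowest in sham control and, over all members, was past 2-fold upward at both day 3 and day 7. Its ratios without the mixed members were 2.20 (1.33 to 3.63), 1.97 (1.29 to 3.06) and 2.29 (1.44 to 3.66), so day 1 then passed 2-fold and day 3 did not. Ttc25, another docking factor, had 132, 248, 279 and 157 CPM and was past 2-fold at day 3, while without the mixed members its day 1 ratio was 2.94 (1.38 to 6.48) and its day 3 ratio 2.19 (1.12 to 4.54). Dnah1, an inner-arm heavy chain, had 18, 8, 19 and 5 UMIs and a ratio of 0.440 (0.128 to 1.23) at day 7, an interval that includes 1. Among the factors that assemble dyneins in the cytoplasm, which together had 947, 968, 1284 and 1056 CPM, Dnaaf3 had 24, 20, 48 and 20 UMIs and a ratio of 2.05 (1.23 to 3.50) at day 3. The Dnaaf3 ratio was 2.06 without the mixed members, and Dnaaf3 overlaps Tnni3 on the same strand. Pih1d2 of the same group had 3, 11, 17 and 9 UMIs and ratios of 5.53 (1.46 to 30.9) at day 1, 5.81 (1.68 to 31.0) at day 3 and 4.75 (1.19 to 27.3) at day 7, but only the day 3 comparison had 20 UMIs, and it overlaps Nkapd1 on the other strand. Dnah7a, Dnah7b and Dnah7c are near-identical copies and their split is uncertain.

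The central apparatus had 6308 CPM (sham control), 6405 (day 1), 8829 (day 3) and 7656 (day 7), and its ratio of 1.40 (1.27 to 1.54) at day 3 was the largest of the axonemal parts, or 1.28 (1.16 to 1.41) without the mixed members. Spag16 (chr1:69826970-70725132, GRCm38), the motile-cilium gene outside the rule with the most UMIs, had 1663, 2110, 2298 and 2035 CPM. Ak7 had 634, 683, 1158 and 769.5 CPM, with 1.82 (1.37 to 2.45) at day 3, or 1.77 without the mixed members. Radial spokes and nexin links had 4455, 4394, 5297 and 4604 CPM, and the inner proteins of the doublet microtubules had 3195, 2917, 3785 and 3652 CPM. Cfap52, among those inner proteins, had 140, 99.3, 296 and 261 CPM, lowest at day 1 and past 2-fold at day 3. 9230110C19Rik, also past 2-fold at day 3, had 8, 4, 19 and 8 UMIs. Over all members each of these axonemal lists was highest at day 3, and outside the mixed members radial spokes and nexin links were as high at day 1, at 4871, 5342, 5327 and 4748 CPM.

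**Figure D2:**
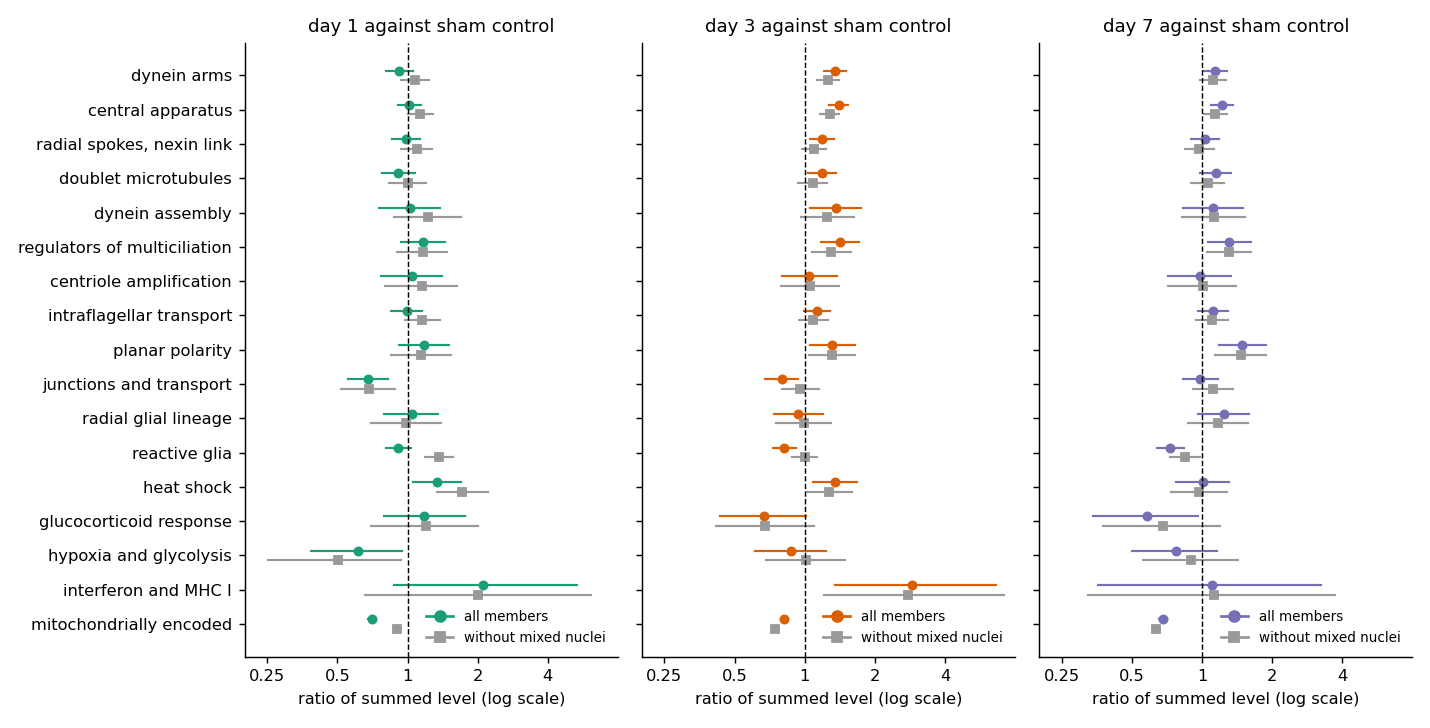
Ratio of the summed CPM to sham control (log axis) for 17 gene lists at day 1, day 3 and day 7, with exact 95% counting intervals. Coloured circles are all ependymal nuclei and grey squares those without the 9 mixed members. Motile-cilium lists lie above 1 at day 3, the list of junctions and transport lies below 1 at day 1 (0.677), and the mitochondrial list lies below 1 on all 3 days for all members.

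Regulators of multiciliation had 1672 CPM (sham control), 1949 (day 1), 2366 (day 3) and 2191 (day 7), ratios of 1.17 (0.940 to 1.44), 1.42 (1.18 to 1.70) and 1.31 (1.06 to 1.62), with 353 to 420.3 CPM in free RNA. Foxj1 (chr11:116330704-116335399, minus strand) had 13 UMIs (sham control), 13 (day 1), 29 (day 3) and 15 (day 7), which were 107, 161, 245 and 196 CPM. Sham control was the lowest of the 4, the day 3 ratio was 2.29 (1.15 to 4.80) and 2.15 without the mixed members, and free RNA held 11.2 to 15.2 CPM. Foxj1 was the 1 regulator of 6 that passed 2-fold at day 3, where 6.27% of all genes were at least 2-fold higher, so a single gene of so short a list is near the background. Rfx3 (chr19:27761721-28011166) had 708, 906, 1073 and 926 CPM, with a day 3 ratio of 1.51 (1.14 to 2.02). Without the mixed members the Rfx3 ratios were 0.956 (0.632 to 1.42), 1.36 (1.01 to 1.82) and 1.21 (0.855 to 1.70), so its direction at day 1 turned. Astrocyte-like nuclei held Rfx3 at 252 to 459 CPM. Rfx2 had 313, 335, 279 and 404 CPM and was lowest at day 3. Mcidas and Foxn4, which act early in multiciliation, had no UMI. Genes of centriole amplification, which make the basal bodies, had 906, 943, 946 and 887 CPM, and those of intraflagellar transport, which carry cargo along all cilia, had 3533, 3500, 3988 and 3952 CPM. No intraflagellar transport gene passed 2-fold on any day, where 14.4%, 12.4% and 16.6% of all genes did from day 1 to day 7. For so short a list this count is not read as a result.

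Planar polarity genes, which align the cilia of neighbouring cells, had 1260 CPM (sham control), 1477 (day 1), 1656 (day 3) and 1878 (day 7), with 722 to 858 CPM in free RNA. The day 7 ratio was 1.49 (1.18 to 1.88), and its log2 value of 0.58 became 0.04 when members were thinned to 1000 UMIs. Prickle2, a cytoplasmic core protein of this pathway, had 585, 769.6, 819.5 and 1187 CPM and a day 7 ratio of 2.03 (1.47 to 2.81), or 1.93 without the mixed members. A single nucleus held 52.8% of its day 7 UMIs. Celsr1, an atypical cadherin of the same pathway, had 173, 248, 262 and 235 CPM, and Prickle1 had 14, 3, 6 and 3 UMIs. The list was highest at day 7.

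Genes of junctions and transport, which form the barrier between ventricle and tissue, had 2767 CPM (sham control), 1874 (day 1), 2205 (day 3) and 2726 (day 7), close to the 1575 to 2169 CPM in free RNA. The ratio was 0.677 (0.555 to 0.823) at day 1, 0.797 (0.675 to 0.940) at day 3 and 0.985 (0.825 to 1.17) at day 7, and without mixed members 0.680, 0.958 and 1.11. At least 2-fold lower were 1 of 10 genes at day 1, 4 of 12 at day 3 and 3 of 11 at day 7, where 6.39%, 6.15% and 7.87% of all genes were. With the mixed members left out these counts were 2 of 7, 1 of 10 and 1 of 10, where 8.19%, 4.24% and 6.08% of all genes were, and the day 3 level of the list was near that of sham control. Slc1a3 (chr15:8634124-8710764) had 78 UMIs (sham control), 22 (day 1), 26 (day 3) and 36 (day 7), which were 642, 273, 219.7 and 469.5 CPM. Its ratio was 0.425 (0.252 to 0.690) at day 1, 0.342 (0.210 to 0.539) at day 3 and 0.731 (0.478 to 1.10) at day 7, so it was lower at day 1 and day 3 than in sham control beyond counting error, and the day 7 interval includes 1. Without the mixed members the ratios were 0.403, 0.420 and 0.741. In astrocyte-like nuclei Slc1a3 had 1621, 1612, 2076 and 1854 CPM, ratios of 0.994, 1.28 and 1.14, and free RNA held 107 to 171 CPM. Whether the 2 classes differ was not tested. A single nucleus held 29.5% of the sham control UMIs of Slc1a3 in the members and 50% at day 1.

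Other genes of this list had fewer UMIs. Tjp1, a scaffold of tight junctions, had 255, 236, 127 and 117 CPM, with ratios of 0.496 at day 3 and 0.460 at day 7, levels near those of free RNA (148 to 224 CPM). Mllt4, which encodes afadin of adherens junctions, had 17, 6, 6 and 5 UMIs. Gja1, the gap junction protein connexin, had 140, 149, 254 and 261 CPM and was lowest in sham control, and without the mixed members its ratios were 2.01, 2.43 and 2.60. Aqp4 had 148, 99.3, 211 and 222 CPM. The bicarbonate transporter Slc4a4 had a ratio of 0.491 (0.216 to 1.05) at day 3, which turned to 1.09 (0.410 to 2.97) without the mixed members, and that of Tjp1 at day 3 moved to 0.667 (0.318 to 1.37).

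The markers of other cell types moved between libraries beside these results. Of the astrocyte list, 9, 8, 10 and 7 of 10 genes had a UMI in the members from sham control to day 7, and the summed level was 1911 CPM (sham control), 1539 (day 1), 625 (day 3) and 717 (day 7). Outside the mixed members it was 792, 658, 643 and 553 CPM, and in astrocyte-like nuclei 18258, 19091, 18805 and 18732 CPM. Slc1a2, a glutamate transporter of astrocytes, had 1153, 409.6, 245 and 169.6 CPM, and Gpc5, an astrocyte glypican, had 36, 68, 1 and 0 UMIs, of which 8, 1, 1 and 0 were outside the mixed members. Of the choroid plexus list, 9, 6, 10 and 5 of 10 genes had a UMI, and the level was 1318, 385, 1969 and 222 CPM, or 426, 399, 537 and 194 CPM without the mixed members. Ttr, the transthyretin of choroid plexus, had 65, 4, 86 and 6 UMIs. The neuron list had 1952, 881, 1149 and 717 CPM, and 792, 837, 1171 and 657 CPM without the mixed members, with 10, 9, 9 and 8 of 10 genes detected. The endothelial list had 428, 236, 203 and 65.2 CPM, and 327, 319, 70.4 and 59.7 CPM without the mixed members, with 7, 3, 4 and 2 of 8 genes detected, and was lowest at day 7. Tjp1 and Lama2 were also lower at day 3 and day 7 than in sham control, and the part of endothelial RNA in their values was not tested. In astrocyte-like nuclei Lama2 had 617, 543, 714 and 653 CPM from sham control to day 7, above the 25.4 to 206 CPM of the members. The part of astrocyte RNA in the Lama2 values was not tested either. The lists of oligodendrocyte precursors and tanycytes were highest at day 1, with 4, 69, 12 and 4 UMIs and 24, 48, 20 and 22 UMIs, and 32 of the 48 tanycyte UMIs of day 1 were Col23a1. The part of these cells in the results was not tested beyond the values without the mixed members.

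**Figure D3:**
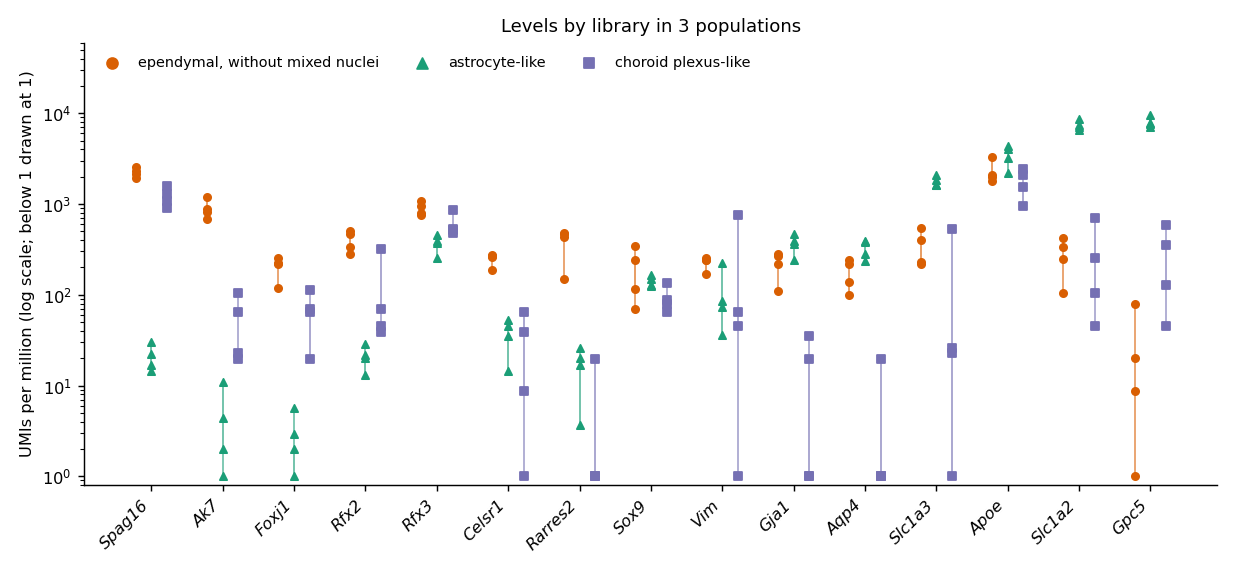
CPM (log axis, values below 1 drawn at 1) of 15 genes by library in ependymal nuclei without mixed members, astrocyte-like nuclei and choroid plexus-like nuclei, with a point for each library. Cilium genes such as Spag16 are highest in ependymal nuclei in every library, Slc1a3 is highest in astrocyte-like nuclei at 1612 to 2076 CPM, and Rfx3 is present in both.

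Genes tied to the radial glia lineage of ependymal cells had 1169, 1216, 1098 and 1448 CPM in all. Within the list, Sox9 (chr11:112782224-112787760, plus strand), a transcription factor of glia, had 10 UMIs (sham control), 14 (day 1), 13 (day 3) and 26 (day 7), which were 82.3, 174, 109.8 and 339 CPM. The day 7 level was the highest, at 4.12 (1.92 to 9.57) times sham control, or 4.96 (2.06 to 13.7) without the mixed members, and all 7 members of day 7 held a UMI. A single nucleus held 46.1% of those UMIs. In astrocyte-like nuclei Sox9 had 166, 128, 151 and 125 CPM, a ratio of 0.751 at day 7. Pax6, a radial glia factor, had 9, 2, 1 and 2 UMIs. Vim, an intermediate filament of ependymal cells and reactive glia, had 214, 186, 161 and 222 CPM.

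The list of other ependymal genes had 2767 CPM (sham control), 3029 (day 1), 3954 (day 3) and 3104 (day 7). Rarres2 (chr6:48569696-48572789), which encodes the secreted protein chemerin, had 45 UMIs (sham control), 26 (day 1), 53 (day 3) and 11 (day 7), which were 371, 323, 448 and 144 CPM. It was lowest at day 7, with a ratio of 0.387 (0.181 to 0.760), or 0.343 without the mixed members, while free RNA held 70.3 to 97.3 CPM, and it overlaps Lrrc61. Tm4sf1, a tetraspanin-like membrane protein, had 222, 273, 245 and 417 CPM.

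Mitochondrial transcripts set the members apart from most other barcodes. Their share of a member's UMIs had a median of 5.73% (0.156% to 13.2%) for sham control, 4.42% (0.167% to 13.2%) for day 1, 5.46% (1.17% to 9.46%) for day 3 and 3.92% (1.52% to 5.92%) for day 7, with the range over nuclei in parentheses. The medians of the other barcodes above 1000 UMIs were 0.0655%, 0.112%, 0.123% and 0.0832%, with highest values of 20.7% to 24.2%. Choroid plexus-like nuclei had 53223, 3138, 32958 and 64468 CPM over the list, high in every library but day 1, while astrocyte-like nuclei had 7642, 7377, 10800 and 21789 CPM and free RNA 4270 to 11139 CPM. The choroid plexus-like class held only 7, 3, 12 and 7 nuclei. In sham control it included a barcode of 56778 UMIs with 8.36% of its UMIs from mitochondrial genes, so single barcodes weigh on these levels. The mitochondrial genome is transcribed outside the nucleus. Summed over the members the list had 66556 CPM (sham control), 46919 (day 1), 54394 (day 3) and 45481 (day 7), with ratios of 0.705 (0.678 to 0.733), 0.817 (0.791 to 0.845) and 0.683 (0.657 to 0.711). Without the mixed members they were 0.902 (0.867 to 0.940), 0.745 (0.721 to 0.770) and 0.636 (0.610 to 0.663). At day 3 the direction turned when the member with the most UMIs was left out of each library, to 0.12 on the log2 scale. The ranges over nuclei overlapped between all libraries. The 9 mixed members had a median of 1.87%, below that of the others.

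mt-Cytb, a subunit of the respiratory chain, had 29210, 18780, 22364 and 18338 CPM, the most of the list. Of the 13 protein-coding genes of the mitochondrial genome, mt-Nd4l, mt-Co2, mt-Co3, mt-Atp6 and mt-Atp8 were at 0 in the members. Their levels in other barcodes are not reported here, so these zeros are not read as a trait of ependymal nuclei. The summed level of the list in the members rests on its remaining genes. mt-Nd3 had 203, 36, 0 and 53 UMIs in the members, and in the whole libraries 3261, 1821, 1 and 2323. Gm28438, a pseudogene at chr1:24612775-24613119, had 0, 0, 88 and 0 UMIs in the members and 1, 2, 5254 and 3 in the whole libraries. The day 3 library thus stood apart in mt-Nd3 and Gm28438 over all its barcodes, so neither gene was particular to ependymal nuclei. Their whole-library counts ran in opposite directions at day 3, and they span 0.348 kb and 0.345 kb. Whether reads of one were assigned to the other was not tested, so their day 3 ratios are not read as separate changes.

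Genes of reactive glia, known from injured astrocytes, had 5682 CPM (sham control), 5176 (day 1), 4638 (day 3) and 4161 (day 7) in the members, below or near the 6648 to 8870 CPM in free RNA. The ratios were 0.911 (0.805 to 1.03), 0.816 (0.728 to 0.914) and 0.732 (0.639 to 0.837). Without the mixed members the levels were 4801, 6558, 4790 and 4061 CPM and the ratios 1.37 (1.18 to 1.57), 0.998 (0.881 to 1.13) and 0.846 (0.727 to 0.983), so the direction at day 1 depended on the mixed members. At day 3 the direction turned with members chosen by a second list of 10 cilium genes (log2 ratio 0.09), and at day 7 the log2 ratio of -0.45 became -0.05 without the deepest member of each library and 0.00 as a mean of the members' own CPM. Astrocyte-like nuclei had 8895, 5922, 8825 and 10020 CPM. Apoe, a lipid carrier, made up much of the list with 2808, 2470, 1918 and 1813 CPM, against 1819 to 2637 CPM in free RNA. Gfap, the intermediate filament of reactive astrocytes, had 8, 4, 6 and 1 UMIs. The metallothionein Mt1 had 1013, 621, 913 and 691 CPM, and Mt2 had 214, 397, 363 and 209 CPM with a day 1 ratio of 1.85 (1.07 to 3.24), or 2.75 without the mixed members. Il6st, a subunit of the receptors for IL-6 family cytokines, had 8, 8, 10 and 14 UMIs and a day 7 ratio of 2.77 (1.08 to 7.63), or 2.59 (0.939 to 7.75) without the mixed members.

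Other response lists held few UMIs. Interferon and antigen presentation genes had 10, 14, 28 and 7 UMIs, which were 82.3, 174, 237 and 91.3 CPM beside 271 to 499 CPM in free RNA, so the day 3 ratio of 2.87 (1.35 to 6.63) was between levels below those of free RNA. With members chosen by a second list of 10 cilium genes, the log2 ratio of this list at day 3 was 0.43 in place of 1.52. Heat shock genes had 1252, 1676, 1681 and 1265 CPM, with 1.34 (1.05 to 1.70) at day 1 and 1.72 (1.33 to 2.22) without the mixed members, and free RNA held 2878 to 4037 CPM. Hsp90aa1, a chaperone, had 362, 596, 465 and 326 CPM. Glucocorticoid targets had 494, 583, 329.5 and 287 CPM, and genes of hypoxia and glycolysis 609, 372, 532 and 469.5 CPM. Immediate early genes had 18, 8, 28 and 9 UMIs, and proliferation genes 5, 2, 2 and 1 UMIs.

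Over all genes, 166 were at least 2-fold higher and 133 at least 2-fold lower at day 1 (2080 entered), 154 and 151 at day 3, and 175 and 157 at day 7. With these 9 left out, 92 and 115 of 1405 passed at day 1, 135 and 90 of 2121 at day 3, and 152 and 98 of 1612 at day 7. The share of the called genes that were higher at day 1 was 55.5% with and 44.4% without the mixed members, 41.7% without the deepest member of each library, 47.7% with median-of-ratios size factors, and 48.4% when totals left out the rule's and the mitochondrial genes. The genes named next had at least 20 UMIs over both sums, a UMI in at least 5 members of the library where they were higher, and no member that held 50% or more of it, and they are the extremes of many comparisons.

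At day 1 the highest ratios were those of Mettl24 at 7.16 (2.38 to 28.9), Kiz at 3.92 (1.83 to 9.11), Eif3c at 3.77 (1.38 to 11.8), Mtmr3 at 3.77 (1.38 to 11.8), Rab31 at 3.68 (1.63 to 9.09) and Gas2l1 at 3.66 (1.44 to 10.4). The ratio of Mettl24 was 5.54 (1.64 to 23.8) without the mixed members, and that of Mtmr3 was 2.69 (0.817 to 9.39). Kiz encodes a protein of the centrosome, and it was at 3.77 without the mixed members. Among the lowest were Arid1a at 0.126 (0.0144 to 0.506), Nipal2 at 0.156 (0.0304 to 0.503), Pdzrn3 at 0.159 (0.0179 to 0.658) and Efcab11. Outside the mixed members the interval of Pdzrn3 includes 1, at 0.155 (0.00364 to 1.03). Frmpd4, also among the lowest, had 3 UMIs at day 1 against 19, and 13 of those 19 lay in mixed members. Gas2l1 overlaps Rasl10a on the other strand. Efcab11 had 32, 5, 38 and 26 UMIs, a ratio of 0.235 (0.0716 to 0.609) at day 1, or 0.360 (0.108 to 0.943) without the mixed members, with 0.817 to 3.25 CPM in free RNA.

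At day 3, beside Gm28438 and Pih1d2, Atg10 was higher at 6.41 (2.21 to 25.4), Fam204a and Tmem117 (3 against 17 UMIs each) at 5.81 (1.68 to 31.0), and Ccdc113 at 4.10 (1.32 to 16.9). Outside the mixed members Fam204a held 1 sham control UMI against 17, a ratio of 15.1 (2.37 to 632), and Tmem117, which overlaps Nell2 on the other strand, held 2 against 17. Ccdc113, a protein of ciliated cells, had 32.9, 186, 135 and 52.2 CPM, from 4, 15, 16 and 4 UMIs, so that the day 1 comparison was under the limit of 20 UMIs, and without the mixed members the day 3 ratio was 3.56. Beside mt-Nd3, the genes with the lowest ratios were Ubn1, Lama2, Sh3rf3, Rgcc and Grm3. Grm3, a glutamate receptor of astrocytes, had 9 of its 18 sham control UMIs in mixed members, and without these its day 3 ratio was 0.296 (0.0516 to 1.19), an interval that includes 1. Lama2, a laminin chain of basement membranes, had 25 UMIs (sham control), 5 (day 1), 3 (day 3) and 2 (day 7), with ratios of 0.123 (0.0238 to 0.404) at day 3 and 0.127 (0.0146 to 0.508) at day 7, and 0.127 (0.0243 to 0.426) at day 3 without the mixed members. Rgcc, a regulator of the cell cycle, had 25, 16, 4 and 13 UMIs and a day 3 ratio of 0.164 (0.0415 to 0.475). A single nucleus held 84.6% of its day 7 UMIs, which came from 3 of 7 members.

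At day 7 the highest ratios after Sox9 were those of Sncaip, Ttc12, Ptp4a2, Lmntd1 and Ubxn4. Lmntd1 had 31 UMIs (sham control), 23 (day 1), 62 (day 3) and 59 (day 7), which were 255, 286, 524 and 769.5 CPM, and its day 7 ratio was 3.01 (1.92 to 4.82) with all members and 3.02 without the mixed members, while free RNA held 2.15 to 3.37 CPM. Ttc12, which takes part in dynein assembly, had 11, 6, 20 and 26 UMIs and a day 7 ratio of 3.74 (1.79 to 8.39). Sncaip, which encodes synphilin, had 16, 27, 36 and 39 UMIs and a ratio of 3.86 (2.11 to 7.40). Among the lowest were Lrrc4c, Cntnap2, Kcnq3 and Gria2, genes of neurons, and Lama2. Outside the mixed members the day 7 ratios were 0.754 (0.122 to 3.53) for Lrrc4c and 0.453 (0.0800 to 1.76) for Gria2, intervals that include 1, 0.0887 (0.00212 to 0.566) for Cntnap2, 0.189 (0.0210 to 0.802) for Kcnq3 and 0.0718 (0.00174 to 0.447) for Lama2. These were 17 UMIs in sham control against 1 at day 7 for Cntnap2, and 16 against 2 for Kcnq3. In astrocyte-like nuclei the day 7 ratios were 0.216 (0.153 to 0.297) for Cntnap2 and 1.65 (1.385 to 1.966) for Kcnq3. Free RNA held 1078 to 1595 CPM of Cntnap2 and 321 to 505 CPM of Kcnq3, above the members' 26.1 to 321 and 39.1 to 255 CPM. Gria2, a glutamate receptor subunit, had 28, 20, 16 and 3 UMIs in the members and 1274 to 1438 CPM in free RNA, against 39.1 to 248 CPM in the members.

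**Figure D4:**
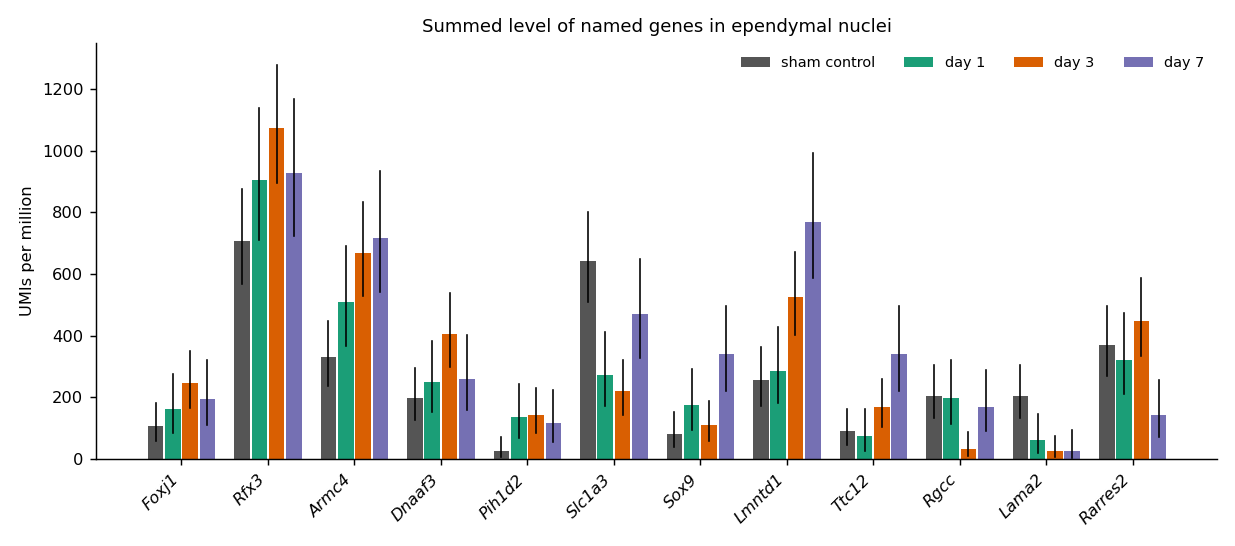
CPM of 12 genes summed over the ependymal nuclei of each library, with exact 95% Poisson intervals and bars that start at 0. Over all members Foxj1, Rfx3 and Armc4 are lowest in sham control (for Rfx3 not so without the mixed members), Slc1a3 is highest there, Sox9 and Lmntd1 are highest at day 7, and Rgcc is lowest at day 3, with its day 7 level mostly from a single nucleus.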

How the data were processed

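Nuclei were profiled by droplet-based 3′ single-nucleus RNA-seq in 4 libraries, 1 per group, each from 3 pooled hemispheres. The authors mapped reads to GRCm38 with STAR 2.7.3a (version per the submitters' processing notes) and counted reads over whole genes, introns included, from the GENCODE vM8 annotation, with similar UMIs collapsed. The deposited values are raw UMI counts of 46983 genes in every barcode, neither normalised nor filtered, and the strand of counting was not given in the sources used here. Positions came from a GRCm38 annotation matched by identifier (46488 of 46983).

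Members were barcodes above 1000 UMIs that passed the rule of 10 genes, the members and gene lists were chosen with earlier results of these data known, and 3 listed symbols were not in the files. UMIs were summed over the members of a library and given as CPM, with exact Poisson intervals. Ratios to sham control carry exact conditional binomial intervals and shares exact Clopper-Pearson intervals, at the 95% level. A gene entered with at least 20 UMIs over both sums, sums under 3 UMIs were set to 3 for calls and medians, and 2-fold was the limit of a call. With 1 library per group no p-value was computed.

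Astrocyte-like and choroid plexus-like nuclei held at least 6 UMIs and 1% of UMIs on their list, thresholds set after seeing the data. Free RNA was summed over barcodes of at most 1000 UMIs. The part of shallow nuclei in it was not tested and may differ by library. From sham control to day 7, barcodes above 500 UMIs numbered 2495, 5340, 7883 and 2537, and those above 1000 UMIs 2226, 1203, 3734 and 1746. Doublets were scored with Scrublet (scanpy 1.11.5), which took 40, 12, 112 and 24 barcodes, and were left out only in an alternative. Named genes were the 10 of the rule, up to 6 per list with the most UMIs and any past 2-fold, the 6 highest and 6 lowest ratios per day with a UMI in at least 5 members and no nucleus at 50% or more, the 10 leading genes, and markers of other types. Of these the text gives those the results turn on, and some genes are not reported here. The scripts were tested on simulated data. Python 3.11.15, numpy 2.4.6, scipy 1.17.1, pandas 2.3.3 and matplotlib 3.10.9 were used.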

Additional observations from a re-analysis of the deposited data

How the results depend on the processing

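No paired analysis was possible because each group is 1 library. Values are log2 ratios to sham control unless named otherwise. Against barcodes above 500 UMIs the share of ependymal nuclei was 0.112% at day 1 and 0.266% at day 3, and day 1 in place of day 7 was the lowest. There the members were the same and only the number of barcodes changed. The cause of the moves given below was not tested. The number of genes past 2-fold, 299, 305 and 332 at day 1, day 3 and day 7, became 598, 497 and 608 with a second list of 10 cilium genes, 14, 17 and 13 in members thinned to 1000 UMIs, 904, 1006 and 930 with at least 10 UMIs, 56, 61 and 74 with at least 50, 786, 805 and 782 at 1.5-fold, 84, 56 and 89 at 3-fold, and 218 at day 7 without the deepest member of each library.

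For motile-cilium genes outside the rule the second list gave 0.14 at day 1 and 0.40 at day 7, leaving out mixed members 0.13 at day 1 and 0.26 at day 3, leaving out the deepest member 0.12 and 0.23, thinning -0.28 at day 1, 0.13 at day 3 and -0.28 at day 7, the mean of the members' own CPM 0.17 at day 3 and 0.00 at day 7, and a stricter rule (10 UMIs and 0.5%) 0.26 at day 3 and 0.07 at day 7. At day 3 the value was above 0 under all 12 alternatives. For mitochondrial genes the second list gave -0.72, -0.61 and -0.73, leaving out mixed members -0.15, -0.42 and -0.65, leaving out the deepest member -0.08, 0.12 and -0.47, thinning -0.11, -0.06 and -0.34, and the members' own CPM -0.18, 0.01 and -0.43. Members with markers of other types left out gave -0.58 at day 1 and -0.34 at day 3, and the stricter rule -0.42 at day 3 and -0.69 at day 7. Among the other lists whose interval excluded 1, the direction turned for planar polarity (-0.36) and junctions and transport (0.02) at day 3 after thinning, and for reactive glia at day 3 with the second list (0.09) and at day 7 with the members' own CPM (0.00). Signs of several values whose interval included 1 also turned, among them interferon genes at day 1 (-0.05) and day 7 (-1.14) with the second list. Interferon genes at day 3 moved from 1.52 to 0.43 with the second list, and planar polarity at day 7 from 0.58 to 0.04 after thinning. Thinned values for glucocorticoid targets at day 7 and hypoxia genes at day 1 could not be given, since no UMI was left. Day 1 and day 7 held 6 and 7 members.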
